A study of Mus musculus with 36 samples.

Results

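The enzymes of phase II conjugation were followed in mouse kidney over 5 dietary interventions. They were taken as the probe sets whose only annotated gene symbol named a cytosolic glutathione S-transferase (Gst with a class letter and a number), a microsomal glutathione S-transferase (Mgst), a UDP-glycosyltransferase of subfamilies 1a to 3a (Ugt) or a cytosolic sulfotransferase (Sult). This gave 56 probe sets of 43 genes among 45141 probe sets: 23 probe sets of 16 Gst genes, 4 of 3 Mgst genes, 14 of 11 Ugt genes and 15 of 13 Sult genes. The symbols chose the members, and the symbol rule was itself chosen with earlier results of these data known.

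Kidneys came from male C57BL/6 mice of 10 to 12 weeks, and each array held the kidney RNA of 1 mouse. The intervention groups were fasting for 3 days (n = 4), 30% dietary restriction for 2 weeks (30%DR, n = 5), and 3 days of unrestricted feeding on a protein-free (n = 5), carbohydrate-free (CHO-free, n = 5) or fat-free (n = 4) diet. Fasted mice were set against ad libitum fed mice on SDS chow (n = 5) and 30%DR mice against a second SDS chow group (n = 3). The other diets shared 1 ad libitum group on a defined Control diet with casein as its protein (n = 5), which was itself set against the second SDS group. The fasting arrays and their SDS arrays were hybridized and normalized apart from the other 27 arrays, so no fasting effect was tested against that of another diet. Food intake was not matched between the macronutrient-free groups and the Control mice on these arrays, and the diet and the amount eaten cannot be told apart.

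Conjugation makes small molecules more soluble so that they can leave the cell and the body. Glutathione transferases join glutathione to reactive electrophiles, UDP-glycosyltransferases of the endoplasmic reticulum mostly attach glucuronic acid from UDP-glucuronate to steroids, bilirubin, phenols and drugs, and sulfotransferases attach sulfate from the donor PAPS to phenols, steroids and catecholamines. The proximal tubule of the kidney carries much of this activity, next to the transporters that secrete the conjugates into urine.

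All values below are log2 signals after RMA normalization, so a difference of 1 is a doubling. A probe set was called when limma gave a Benjamini-Hochberg adjusted p under 0.05 over all probe sets and the fold change was at least 1.5. A level is compared only within a probe set, since different probe sets bind their RNA with different strength. Of the 56 members, 35 lay above the median probe set (4.18) in the fasting cohort and 37 above it (3.71) in the diet cohort. The rest gave signals in the lower part of the array's range, among them most Sult members, Mgst2, Gstm3, Gstm6, Gstm7 (1 of its 2 probe sets), Gstp3, Ugt2a1, Ugt2b1 and Ugt2b35. Within groups, the member probe sets had a median SD of 0.14 in the fasting cohort and 0.21 in the diet cohort.

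The arrays carried kidney markers, with a mean over the proximal tubule markers between 9.72 and 10.25 and over the thick ascending limb markers between 10.24 and 11.33 on every array, and several marker lists shifted between groups. The gap between the 3' and 5' control signals for Gapdh, which grows as RNA degrades, was 1.85 ± 0.62 in CHO-free mice and 0.82 ± 0.14 in Control mice (SD, n = 5 each). The CHO-free mice TS34 and TS35 had the widest gap, 2.45 in each. The gap was 1.34 ± 0.59 in protein-free mice (n = 5), 1.59 ± 0.50 in 30%DR mice (n = 5) and 1.27 ± 0.41 in their SDS mice (n = 3). The adipocyte markers averaged 6.47 ± 0.24 in 30%DR mice (n = 5) and 7.37 ± 0.53 in their SDS mice (n = 3). That SDS mean was the highest of the diet cohort, and Control mice had 5.82 ± 0.36 (n = 5). These measures are given again where a result moved with them.

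Fasting changed the conjugation enzymes most often. Of the 56 members, 13 rose and 3 fell (28.6%), against 5.31% of all probe sets called in this comparison, 2.63% higher and 2.68% lower. The rise ran through the glutathione transferases, with 8 of 23 Gst probe sets (5 genes) and 2 of 4 Mgst probe sets called higher and none lower. The Ugt members split into 2 that rose and 3 that fell, and 1 of 15 Sult probe sets rose. The median log2 fold change was 0.38 over the Gst members and 0.15 over all members, against 0.00 over all probe sets, and 22 of the 23 Gst probe sets lay above zero.

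The CHO-free diet called 10 members, 9 higher and 1 lower (17.9%), against 3.6% of all probe sets, 1.35% higher and 2.25% lower. Here 7 of 23 Gst probe sets rose, all from Gsta2, Gstm1 and Gstm4, while no Mgst member was called. Ugt2b5 and Ugt2b37 rose and Sult1c2 fell. After 30%DR 2 members were called (3.57%, against 0.919% of all probe sets and 0.47% higher), and both were rises of Gsta2. The protein-free diet called 1 member, Ugt2b37, which fell (1.79%, against 0.738% of all probe sets and 0.288% lower).

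The fat-free diet called no member and no probe set at all (0% of all probe sets) in limma, with 2 members and 2089 of all probe sets (4.63%) at an unadjusted p under 0.05. With arrayWeights 2 of all probe sets were called, neither a member. Control against SDS (30%DR) called no member and 0.0465% of all probe sets, with 3 members and 6.34% of all probe sets at an unadjusted p under 0.05. The 6 sets of fold changes are drawn by family below.

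**Figure D1:**
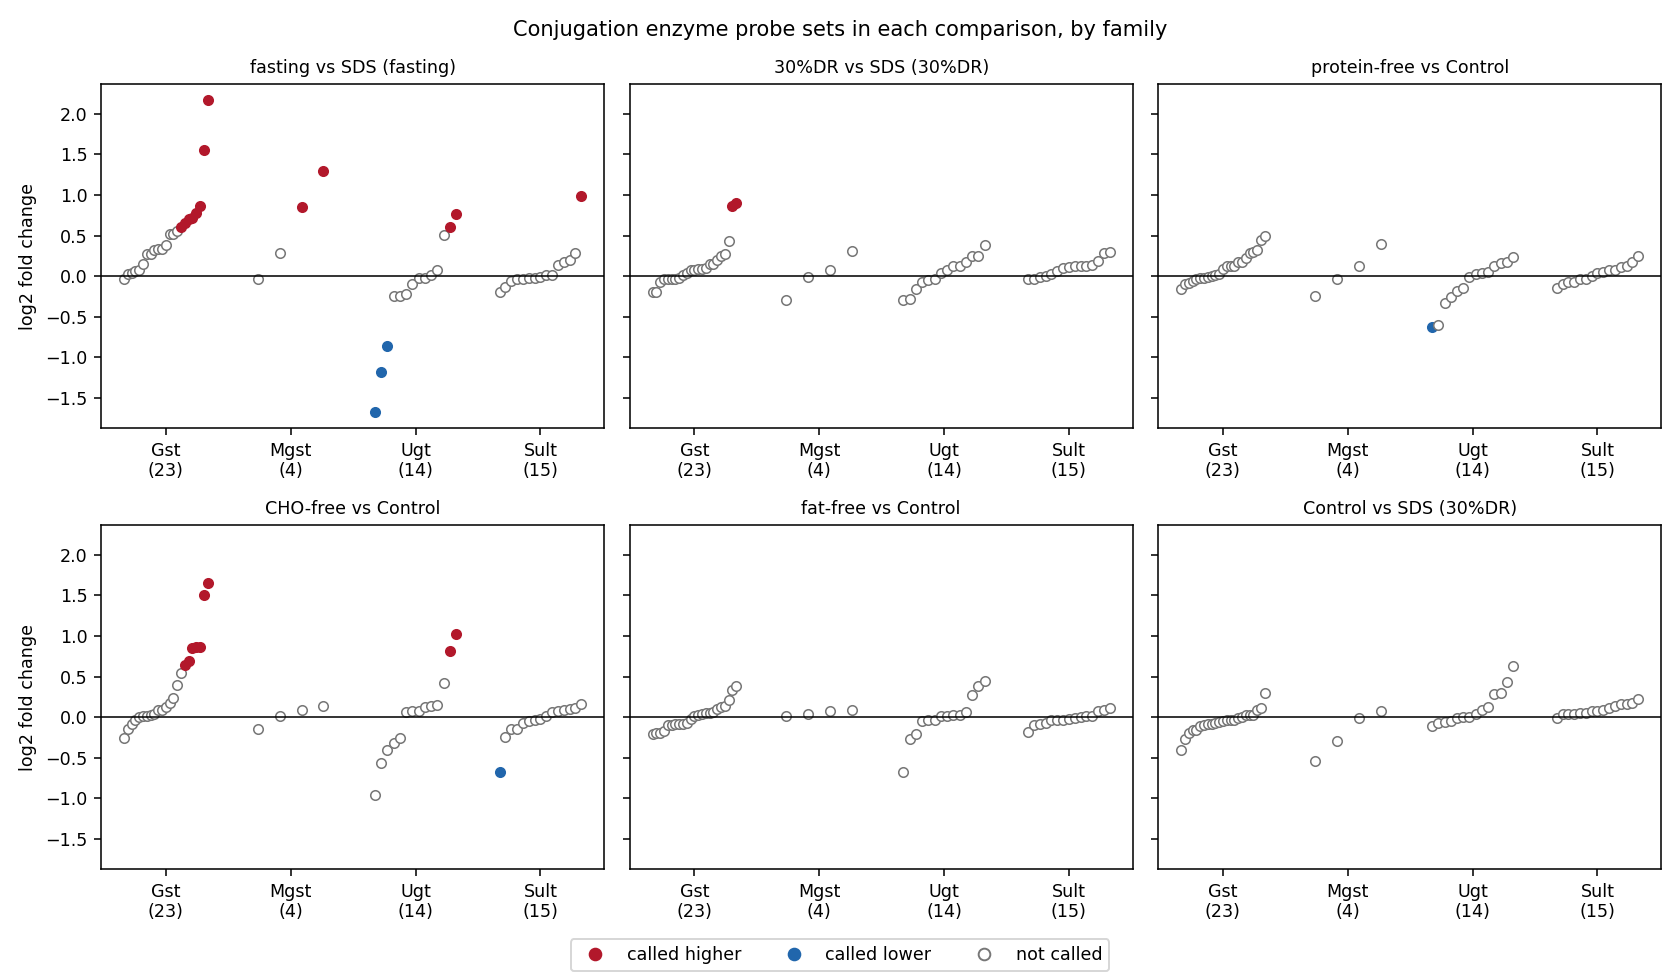
Log2 fold change of each of the 56 member probe sets (y axis) by family (x axis, number of probe sets in brackets) in 6 comparisons. Filled points passed the test (red higher, blue lower) and open points did not: fasting has 13 higher and 3 lower, the CHO-free diet 9 higher and 1 lower, 30%DR 2 higher, the protein-free diet 1 lower, and the fat-free diet and the Control diet against SDS chow none.

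Gsta2, an alpha class transferase with peroxidase activity toward lipid hydroperoxides, was called higher in 3 of the 5 interventions and on both of its probe sets each time. Its promoter is shown because no other member was called higher so often. The capitals mark the single match to GCGTG, the core letters of the xenobiotic response element bound by the aryl hydrocarbon receptor, searched on both strands. The match begins at position -7 from the annotated start. These letters occurred in 32.4% of all 32851 promoters of the same length and in 22.9% of the 48 member promoters, so the match is a description only. The sequence is RefSeq's (GRCm38.p6, 250 bases before to 50 after the start, 5′ to 3′).
Gsta2 promoter, chr9:78347096-78347395, minus strand: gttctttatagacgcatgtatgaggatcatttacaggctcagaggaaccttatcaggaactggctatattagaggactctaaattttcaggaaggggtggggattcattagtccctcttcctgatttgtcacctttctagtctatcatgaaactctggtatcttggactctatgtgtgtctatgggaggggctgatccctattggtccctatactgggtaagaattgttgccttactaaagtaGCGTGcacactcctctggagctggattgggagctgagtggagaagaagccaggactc

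In fasted mice, Gsta2 probe set 1421041_PM_s_at gave 11.63, 11.62, 11.67 and 11.57, against 9.94, 9.56, 9.56, 8.58 and 9.65 in SDS mice. Every fasted mouse lay above every SDS mouse, and the fasted mice spread far less (SD 0.04, n = 4) than the SDS mice (SD 0.51, n = 5). The log2 fold change was 2.17 (SE 0.21, adjusted p 3.73e-05), the largest among the members. The low SDS value of 8.58 belonged to mouse K349. Probe set 1421040_PM_a_at read 12.57, 12.75, 12.48 and 12.67 in fasted mice, against 11.40, 11.10, 10.98, 10.60 and 11.21 in SDS mice. The groups were again apart, by 1.56 (SE 0.13, adjusted p 1.75e-05).

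After 30%DR, probe set 1421040_PM_a_at of Gsta2 gave 11.30, 11.40, 11.48, 11.47 and 11.42, against 10.54, 10.26 and 10.86 in the SDS (30%DR) mice. All 5 restricted mice were above all 3 SDS mice, a rise of 0.86 (SE 0.14, adjusted p 0.00124). Probe set 1421041_PM_s_at rose by 0.90 (SE 0.21, adjusted p 0.0263), with 10.32, 9.87, 10.58, 10.17 and 10.15 in 30%DR mice and 9.24, 9.02 and 9.70 in SDS mice. The adipocyte markers were lower in the 30%DR mice than in their SDS mice. With their mean as a covariate the rise was 0.85 (adjusted p 0.00856) on the first probe set and 0.89 (adjusted p 0.0921, no longer called) on the second, which also lost its call without any one of SDS mice TS55 and TS56 or 30%DR mice TS73 and TS76, at 0.75 to 0.87.

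On the CHO-free diet, Gsta2 probe set 1421040_PM_a_at gave 11.75, 11.83, 11.99, 12.04 and 12.30, against 10.07, 10.46, 10.45, 10.72 and 10.66 in Control mice. The gap between the groups was wide on every array, and the log2 fold change was 1.51 (SE 0.12, adjusted p 8.91e-09). Probe set 1421041_PM_s_at rose by 1.65 (SE 0.18, adjusted p 1.94e-06), again without overlap. Adjusted for the Gapdh gap, the rises were 1.51 and 2.05 (adjusted p 1.27e-06 and 4.6e-07), and without mice TS34 and TS35 they were 1.49 and 1.85 (adjusted p 1.04e-06 and 5.42e-06).

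The other groups showed smaller values for Gsta2. Probe set 1421040_PM_a_at gave 10.85, 10.84, 10.83, 11.04 and 10.96 in protein-free mice, all above the Control range of 10.07 to 10.72, and the difference of 0.44 (SE 0.12) did not pass the test (adjusted p 0.0637). In fat-free mice it read 10.66, 10.69, 10.99 and 11.11, which overlapped the Control mice, with a difference of 0.39 (SE 0.13, adjusted p 0.998). Control mice differed from SDS (30%DR) mice by -0.08 (SE 0.14, adjusted p 0.971). The probe sets of Gsta2 carry the suffixes a and s, which mark probes that can match several transcripts or related genes, and their share from other alpha class genes is not known here.

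**Figure D2:**
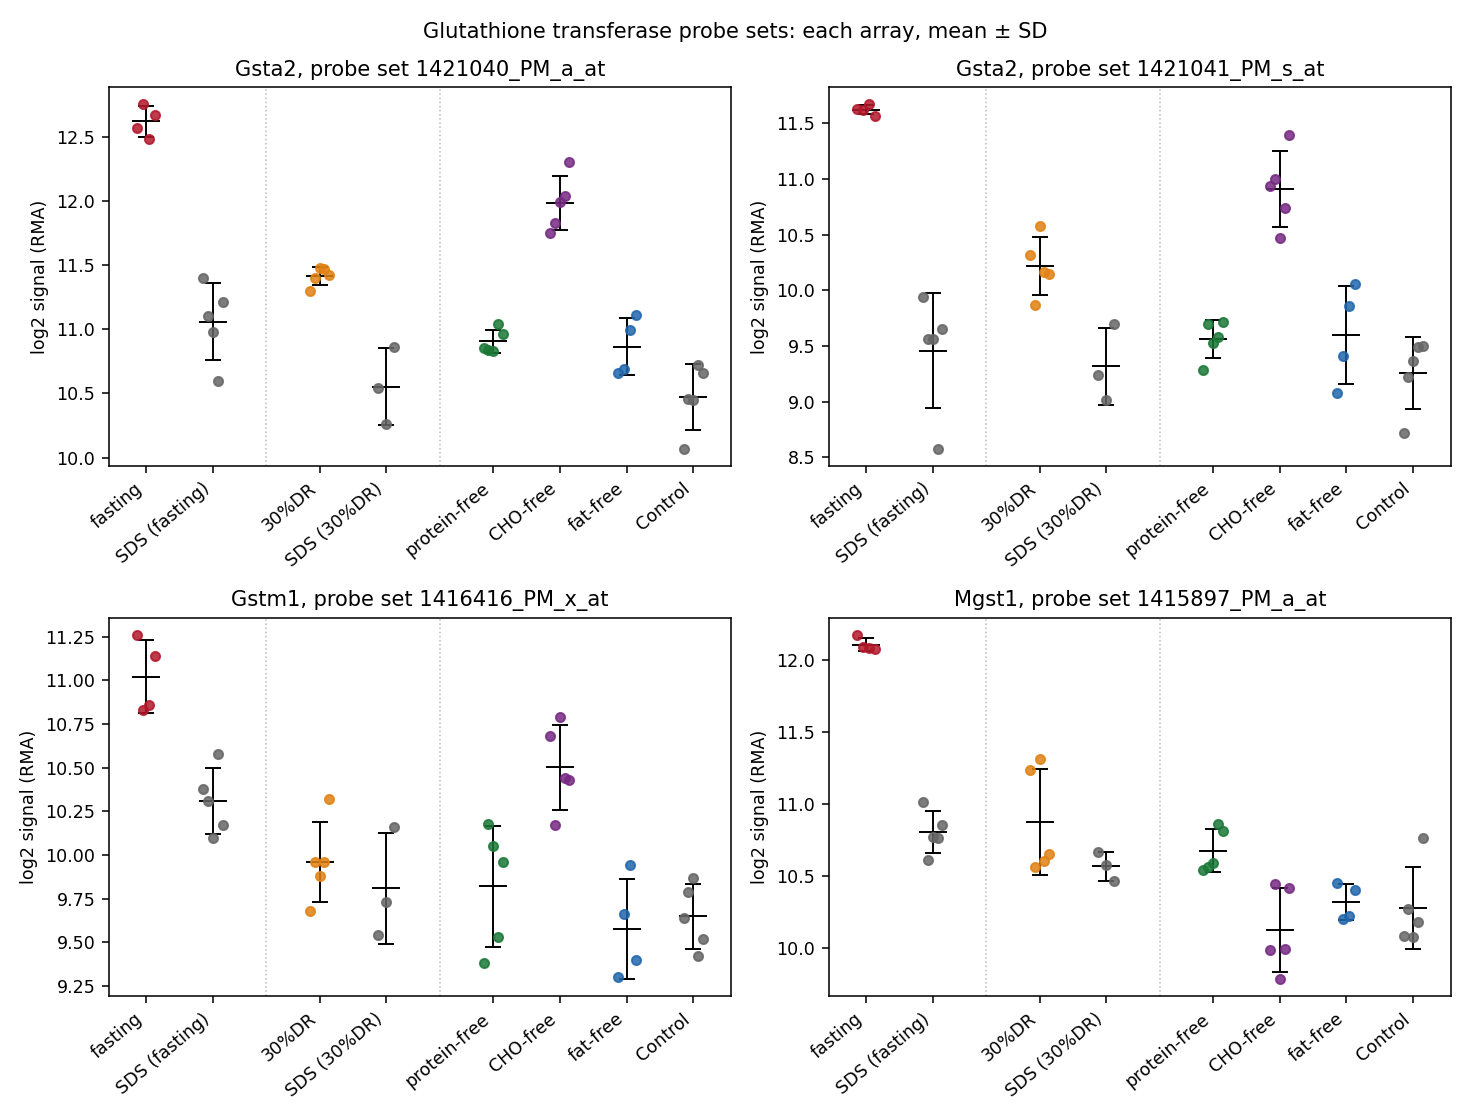
Log2 RMA signal (y axis) of each mouse for Gsta2 (both probe sets), Gstm1 and Mgst1 in the 8 groups (x axis), with the mean and SD as black bars and dotted lines between sets that share a control group. Fasted and CHO-free mice lie above their controls for Gsta2 and Gstm1, while Mgst1 stands apart only in the fasted mice (12.07 to 12.17, against 10.61 to 11.01 in SDS mice).

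Gstm1, a mu class transferase, rose on 3 of 4 probe sets in fasting and on all 4 on the CHO-free diet. In fasted mice probe set 1448330_PM_at gave 10.71, 10.35, 10.25 and 10.71, against 9.72, 9.70, 9.65, 10.00 and 9.58 in SDS mice. The groups did not overlap and differed by 0.78 (SE 0.12, adjusted p 0.000682), and the probe sets 1425627_PM_x_at and 1416416_PM_x_at rose by 0.72 and 0.71. The remaining probe set, 1425626_PM_at, overlapped between the groups and differed by 0.33 (SE 0.14, adjusted p 0.123).

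In CHO-free mice, Gstm1 probe set 1425627_PM_x_at gave 7.35, 6.81, 7.57, 7.30 and 7.07, against 6.39, 6.35, 6.64, 6.06 and 6.30 in Control mice. Each CHO-free mouse exceeded each Control mouse on all 4 probe sets, by 0.87 (SE 0.16, adjusted p 0.000724) on this one and by 0.86, 0.85 and 0.64 on the others. The smallest rise, on probe set 1425626_PM_at, was 0.53 without Control mouse TS29 and 0.57 without CHO-free mouse TS36, below the fold change minimum.

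Gstm4, another mu class gene beside Gstm1 in the same cluster, rose by 0.69 on the CHO-free diet (SE 0.12, adjusted p 0.000679; 6.72 ± 0.24 in CHO-free and 6.03 ± 0.21 in Control mice, SD, n = 5 each). This rise was 0.42 (adjusted p 0.114) once adjusted for the Gapdh gap and 0.57 without mice TS34 and TS35, and neither was called. In fasting Gstm4 differed by 0.15 (SE 0.08, adjusted p 0.215). Of the 4 Gstm1 probe sets 2 carry the suffix x, which marks probes that can bind related sequences, and whether they also read Gstm4 or another mu class gene was not tested.

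Of the remaining mu class, Gstm5 differed by 0.27 in fasting (SE 0.07, adjusted p 0.0203), below the fold change minimum, with all fasted mice above all SDS mice. Gstm2 differed by 0.54 on the CHO-free diet without passing the test, again without overlap between the groups. Gstm3, Gstm6 and Gstm7 were called in no comparison, on low signals except for Gstm7 probe set 1419072_PM_at, which lay above the median probe set. Below the fold change minimum, Gstm6 differed by 0.27 in fasting (SE 0.07, adjusted p 0.0181), with all fasted mice above all SDS mice. Gstm3 probe set 1427474_PM_s_at differed by 0.40 on the CHO-free diet (SE 0.11, adjusted p 0.0234), also below the minimum.

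Other glutathione transferases were called in fasting alone. Gsta4, which clears aldehydes from lipid peroxidation, rose by 0.86 (SE 0.12, adjusted p 0.000365; 8.84 ± 0.19 in fasted mice, n = 4, and 7.98 ± 0.21 in SDS mice, n = 5, SD). Gstp1, the pi class enzyme, rose by 0.60 (SE 0.09, adjusted p 0.00062), at the edge of the fold change minimum: it was 0.58 without SDS mouse K349, and 0.55 without fasted mouse K339 or K344.

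Gstt2, of the theta class, gave 11.09, 11.49, 11.16 and 11.25 in fasted mice and 10.51, 10.60, 10.62, 10.38 and 10.81 in SDS mice. The fasted mice were all above the SDS mice, a rise of 0.66 (SE 0.10, adjusted p 0.000783) that was 0.58 without fasted mouse K340. It was also among the members with the largest difference on the protein-free diet, with 10.69, 11.06, 10.81, 10.72 and 10.76 in protein-free mice and 10.46, 10.38, 10.25, 10.26 and 10.18 in Control mice. These groups did not overlap either, and the difference of 0.50 had an adjusted p of 0.00111 but a fold change of 1.41, under the minimum. In 30%DR mice Gstt2 read 10.76, 10.88, 10.66, 10.71 and 10.90, above the 10.24, 10.46 and 10.36 of the SDS mice, with a difference of 0.43 (SE 0.10, adjusted p 0.0179) and a fold change of 1.35. So Gstt2 lay outside the range of its controls in 3 interventions, and was called in 1 of them.

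Gstt1, Gstt3, Gstk1 and Gsto1, of the theta, kappa and omega classes, had adjusted p under 0.05 in fasting and log2 differences of 0.32 to 0.56, below the fold change minimum. With no such minimum 27 members passed in fasting, 22 higher and 5 lower, against 19.6% of all probe sets, 10.1% higher and 9.54% lower. Gsto1 passed the minimum on 1 or both probe sets without fasted mouse K343 or SDS mouse K346 or K350, at 0.60 to 0.65, and Gstt3 without K343, at 0.59. Adjusted for the Gapdh gap, Gsto1 probe set 1416531_PM_at was called at 0.62 (adjusted p 0.00164). In no other intervention was a Gst gene beside Gsta2, Gstm1 and Gstm4 called.

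The microsomal transferases are membrane proteins that also reduce lipid hydroperoxides. Mgst1 rose in fasting with little scatter: probe set 1415897_PM_a_at gave 12.17, 12.09, 12.08 and 12.07 in fasted mice, against 11.01, 10.61, 10.77, 10.76 and 10.85 in SDS mice. No value overlapped, and the log2 fold change of 1.30 (SE 0.08, adjusted p 1.1e-06) had the smallest adjusted p among the members in this comparison. The second Mgst1 probe set, 1415898_PM_at, stayed between 2.44 and 3.06 on all arrays and differed by -0.04 (SE 0.06, adjusted p 0.773).

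The promoters of 3 members, Mgst1, Gstm5 and Gstm7, held TGACNNNGC, the core letters of the antioxidant response element through which Nrf2 acts. Only that of Mgst1 is shown, the 1 of these 3 genes that was called in any comparison. Capitals mark the match, which stands on the opposite strand. These letters occurred in 12.4% of all promoters and in 6.25% of the member promoters, so the match is a description only (RefSeq, GRCm38.p6, 5′ to 3′).
Mgst1 promoter, chr6:138140277-138140576, plus strand: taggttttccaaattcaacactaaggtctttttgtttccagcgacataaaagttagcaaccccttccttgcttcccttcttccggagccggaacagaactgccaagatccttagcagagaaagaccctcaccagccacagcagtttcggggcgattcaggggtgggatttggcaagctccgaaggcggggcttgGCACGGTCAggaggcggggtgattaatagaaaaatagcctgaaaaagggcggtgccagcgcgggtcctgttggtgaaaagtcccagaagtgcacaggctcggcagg

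Outside fasting, Mgst1 gave 11.23, 10.56, 11.31, 10.60 and 10.65 in 30%DR mice and 10.66, 10.57 and 10.46 in SDS mice. Mice TS73 and TS76 stood above the other restricted mice, the groups overlapped, and the difference of 0.31 had an adjusted p of 0.506. TS73 and TS76 also had the smallest Gapdh gaps of the restricted mice, 1.04 and 1.15, against 1.66 to 2.22. Among the SDS mice the widest gap, 1.73 in TS55, went with the highest Mgst1 value. The part of the gap in this split was not tested. Mgst1 differed by 0.40 on the protein-free diet (adjusted p 0.217) and by -0.15 on the CHO-free diet (adjusted p 0.595). Mgst3, which can make leukotriene C and reduce hydroperoxides, rose in fasting by 0.85 (SE 0.09, adjusted p 9.45e-05; 10.78 ± 0.10 in fasted mice, n = 4, and 9.92 ± 0.19 in SDS mice, n = 5, SD). Mgst2 was called in no comparison, with its largest difference, -0.54, in Control against SDS (30%DR) mice.

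The glycosyltransferases moved in both directions. Ugt2b37 and Ugt2b5, members of the subfamily that glucuronidates steroids and bile acids, fell in fasting and rose on the CHO-free diet. The promoters of these neighbouring genes on chromosome 5 are shown because the pair moved together and because, of all pairs of Ugt promoters, they shared the longest run of identical bases, 72 bases against at most 12 in any other pair. Capitals mark that run, which begins at position -85 in Ugt2b37 and -68 in Ugt2b5, counted from the annotated start. The sequences are RefSeq's (GRCm38.p6, 5′ to 3′).
Ugt2b37 promoter, chr5:87254739-87255038, minus strand: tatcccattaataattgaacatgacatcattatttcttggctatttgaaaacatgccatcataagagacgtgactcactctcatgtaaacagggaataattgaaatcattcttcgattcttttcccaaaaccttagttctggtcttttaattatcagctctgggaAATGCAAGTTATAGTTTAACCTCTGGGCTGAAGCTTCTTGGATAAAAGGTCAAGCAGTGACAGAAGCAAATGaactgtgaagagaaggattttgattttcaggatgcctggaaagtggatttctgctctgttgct
Ugt2b5 promoter, chr5:87140291-87140590, minus strand: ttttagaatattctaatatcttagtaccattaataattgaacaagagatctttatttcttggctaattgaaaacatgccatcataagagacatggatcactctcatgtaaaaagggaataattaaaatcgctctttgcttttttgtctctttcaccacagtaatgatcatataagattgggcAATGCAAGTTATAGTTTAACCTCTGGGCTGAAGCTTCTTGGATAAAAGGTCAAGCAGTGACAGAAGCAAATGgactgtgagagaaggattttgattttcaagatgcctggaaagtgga

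The HNF1 palindrome, GTTAAT followed after 1 base by its reverse complement, was searched because HNF1 acts on many tubule and liver genes. It was in none of the 48 member promoters and in 3 of all 32851, so these letters are rare in any promoter of this length. Promoters were found in the RefSeq table for 38 of the 43 member genes.

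In fasted mice Ugt2b37 gave 9.32, 8.66, 9.95 and 8.55, against 10.78, 10.61, 10.53, 11.06 and 11.01 in SDS mice. Every fasted mouse was below every SDS mouse, although the fasted mice varied among themselves (SD 0.65, against 0.24 in SDS mice), and Ugt2b37 fell by 1.68 (SE 0.25, adjusted p 0.000653). Ugt2b5 gave 5.67, 4.63, 5.53 and 4.31 in the same fasted mice, against 6.16, 6.13, 6.22, 6.03 and 6.54 in SDS mice, so Ugt2b5 fell by 1.18 (SE 0.25, adjusted p 0.00601). For both genes mice K340 and K344 were the lowest of the 4 fasted mice. Ugt2a3, of a neighbouring subfamily, fell by 0.86 (SE 0.15, adjusted p 0.00227; 3.57 ± 0.30 in fasted mice, n = 4, and 4.43 ± 0.26 in SDS mice, n = 5, SD), on a signal that the fasted mice had under the cohort's median of 4.18. A filter for probe sets above the median signal removed Ugt2a3, so it was not called under that setting.

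On the CHO-free diet Ugt2b37 gave 11.40, 11.42, 11.61, 11.66 and 11.53, against 10.45, 10.84, 10.40, 11.01 and 10.82 in Control mice. The groups did not overlap and Ugt2b37 rose by 0.82 (SE 0.13, adjusted p 0.000284). Ugt2b5 gave 7.13, 6.53, 7.55, 7.36 and 7.28 in CHO-free mice and 5.89, 6.30, 5.86, 6.37 and 6.28 in Control mice. It too was higher in each CHO-free mouse, by 1.03 (SE 0.19, adjusted p 0.00106). Adjusted for the Gapdh gap, Ugt2b37 was higher by 0.76 (adjusted p 0.0144) and Ugt2b5 by 0.63 (adjusted p 0.148, not called). Without mice TS34 and TS35 both passed, at 0.75 and 0.84.

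The protein-free diet went the other way for Ugt2b37, which gave 10.28, 9.83, 9.70, 10.32 and 10.22 in protein-free mice, all below the Control mice. It fell by 0.63 (SE 0.13, adjusted p 0.00996), the only member called on this diet. The call was near its limits: fitted on these groups alone the adjusted p was 0.059, and the difference was -0.56, -0.57 and -0.54 without Control mouse TS29, protein-free mouse TS50 or protein-free mouse TS51, below the fold change minimum. Ugt2b5 gave 6.66, 5.27, 5.70, 5.91 and 5.88 in protein-free mice, overlapped the Control mice and differed by -0.26 (SE 0.19, adjusted p 0.645).

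In fat-free mice Ugt2b37 read 11.19, 11.00, 10.97 and 11.44 and Ugt2b5 read 6.70, 6.37, 6.25 and 6.78. Both overlapped the Control mice, with differences of 0.45 (SE 0.14) and 0.39 (SE 0.20) at an adjusted p of 0.998 each. In 30%DR mice Ugt2b37 ranged over 10.11 to 10.70 and in SDS mice over 10.48 to 10.65, a difference of -0.07 (SE 0.15, adjusted p 0.929). Ugt2b5 differed by 0.25 (SE 0.22, adjusted p 0.74) in that comparison and by 0.30 (adjusted p 0.905) between Control and SDS (30%DR) mice.

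**Figure D3:**
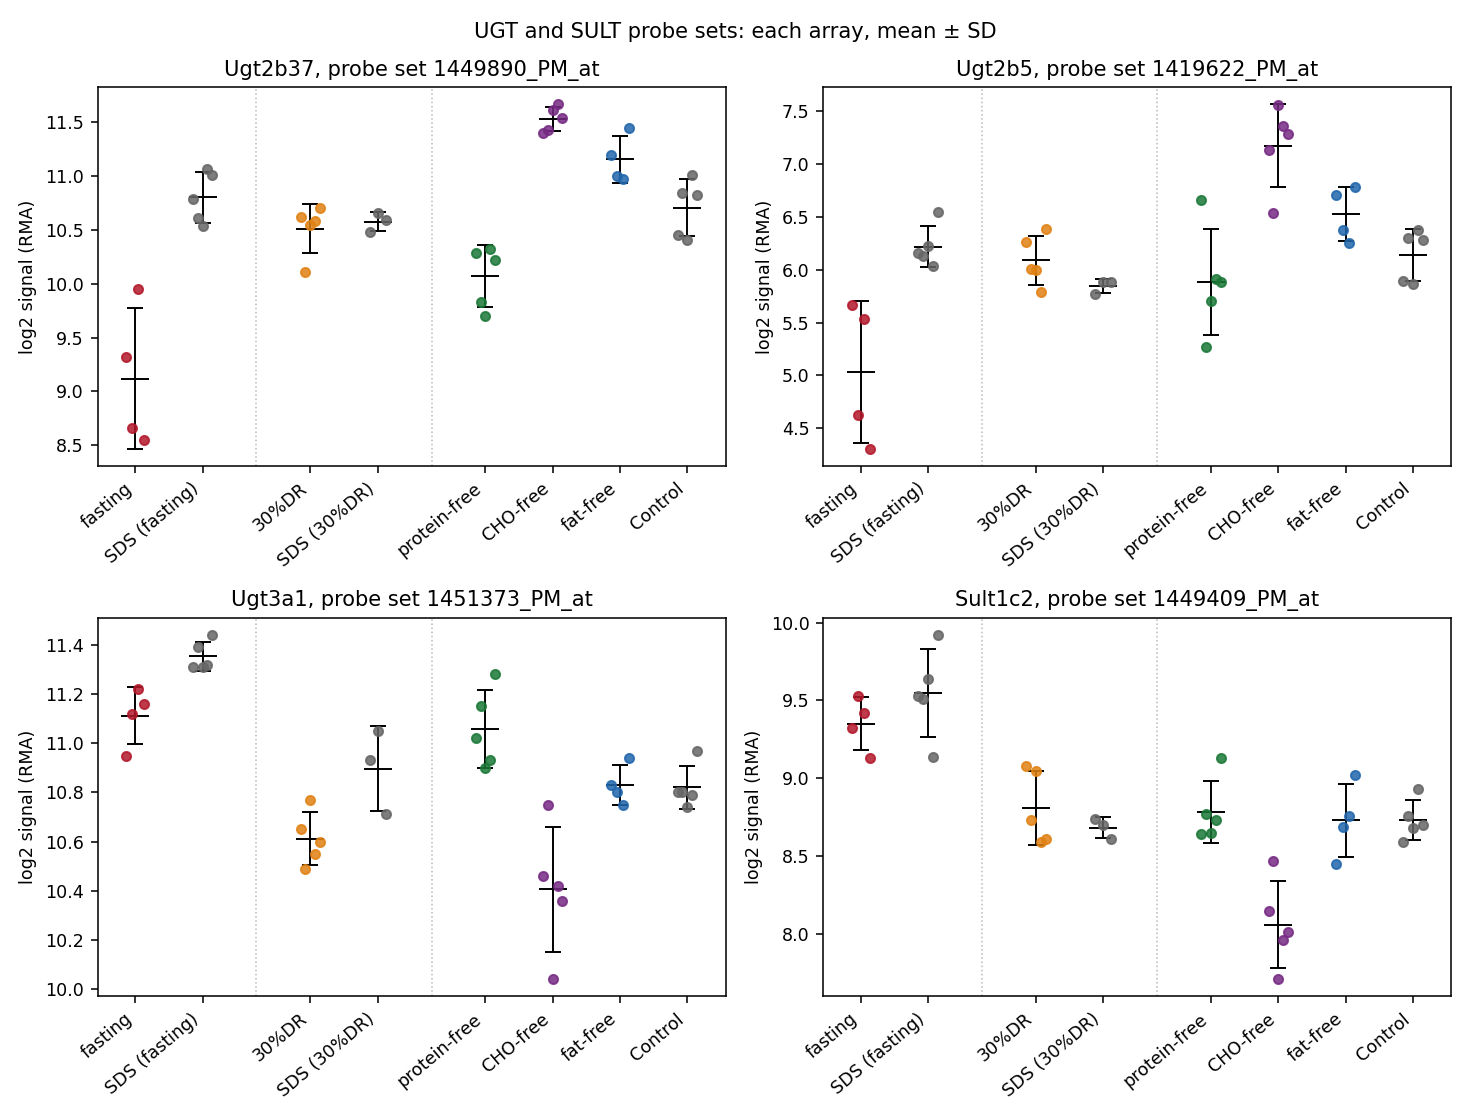
Log2 RMA signal (y axis) of each mouse for Ugt2b37, Ugt2b5, Ugt3a1 and Sult1c2 in the 8 groups (x axis), with the mean and SD as black bars and dotted lines between sets that share a control group. Ugt2b37 is low in fasted mice (8.55 to 9.95) and protein-free mice (9.70 to 10.32) and high in CHO-free mice (11.40 to 11.66), and Sult1c2 is low in CHO-free mice (7.71 to 8.47).

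The Ugt1a genes, which share their last exons and so can share probes, were called higher in fasting and in no other comparison. Ugt1a6a, which glucuronidates phenols, gave 11.51, 11.50, 11.38 and 11.56 on probe set 1426261_PM_s_at in fasted mice and 10.75, 10.86, 10.81, 10.46 and 10.77 in SDS mice. The groups were apart and the rise was 0.76 (SE 0.08, adjusted p 8.72e-05). Its other probe set, 1426260_PM_a_at, was also without overlap, at 0.51 (SE 0.06, adjusted p 0.000187), a fold change of 1.42. Ugt1a9, another phenol enzyme of the cluster, rose by 0.61 (SE 0.07, adjusted p 0.000104; 12.38 ± 0.09 in fasted mice, n = 4, and 11.77 ± 0.10 in SDS mice, n = 5, SD), and by 0.58, under the minimum, without SDS mouse K349 or fasted mouse K344. On the CHO-free diet Ugt1a9 had an adjusted p of 0.000969 at a difference of 0.42, under the minimum, and no Control mouse reached a CHO-free mouse.

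Ugt3a1 and Ugt3a2 belong to a subfamily whose human members use sugars other than glucuronic acid. Ugt3a1 was called in no diet against its control, and differed by -0.57 and -0.41 on its probe sets on the CHO-free diet (adjusted p 0.00231 and 0.00809), the second with overlap. The first was called after centring each array on its median (-0.62) and without any one of Control mice TS26 and TS28 or CHO-free mice TS31 and TS32 (-0.59 to -0.68). Ugt3a2 differed by -0.26 there (SE 0.09, adjusted p 0.0629) and by -0.02 in fasting (adjusted p 0.869). In fasting the Ugt3a1 probe sets differed by -0.22 and -0.24 (adjusted p 0.0332 and 0.0238), below the fold change minimum. On both, every fasted mouse was below every SDS mouse.

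Ugt2b34, chosen for mention after its values were seen, had the widest spread within groups of all members in both cohorts. On probe set 1427960_PM_at it ranged over 4.02 to 6.39 in CHO-free mice and 5.27 to 7.42 in Control mice, and the within-group SD was 0.79 in the diet cohort. The difference of -0.96 (SE 0.45, adjusted p 0.18) was larger in size than that of Sult1c2 on the same diet and did not pass. The second probe set, 1427961_PM_s_at, differed by -0.32 (SE 0.23, adjusted p 0.41).

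Among the sulfotransferases, 1 gene rose in fasting and 1 fell on the CHO-free diet, and no other Sult member was called. Sult1a1, the phenol sulfotransferase, rose in fasting by 0.99 (SE 0.10, adjusted p 3.88e-05), with 9.25 ± 0.16 in fasted mice (n = 4) and 8.25 ± 0.16 in SDS mice (SD, n = 5) and no overlap. On the other diets it differed by 0.11 to 0.29 (adjusted p 0.443 or more), with SDs widened by 1 low mouse each in the 30%DR group (TS75, 7.80) and the CHO-free group (TS34, 7.64). TS75 had the widest Gapdh gap of its group (2.22). TS34 shared the widest gap of its group (2.45) with TS35, which gave 8.22 for Sult1a1.

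Sult1c2, of the 1c subfamily, gave 8.15, 8.47, 7.71, 7.96 and 8.01 in CHO-free mice and 8.59, 8.76, 8.68, 8.93 and 8.70 in Control mice. Every CHO-free mouse was below every Control mouse, and Sult1c2 fell by 0.67 (SE 0.13, adjusted p 0.00124). The lowest value was that of mouse TS34. Adjustment for the Gapdh gap gave -0.36 (adjusted p 0.188) and leaving out mice TS34 and TS35 gave -0.53 (adjusted p 0.0391), neither of them called. In fasting Sult1c2 differed by -0.20 (adjusted p 0.382). Sult1d1, a catecholamine sulfotransferase, differed by 0.29 and 0.17 in fasting (adjusted p 0.00609 and 0.121), and Sult1e1, Sult1c1, Sult2a2, Sult2a8, Sult2b1, Sult3a1, Sult4a1, Sult5a1 and Sult6b1 differed by -0.13 to 0.20 in fasting, most of them on signals below the median probe set.

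**Figure D4:**
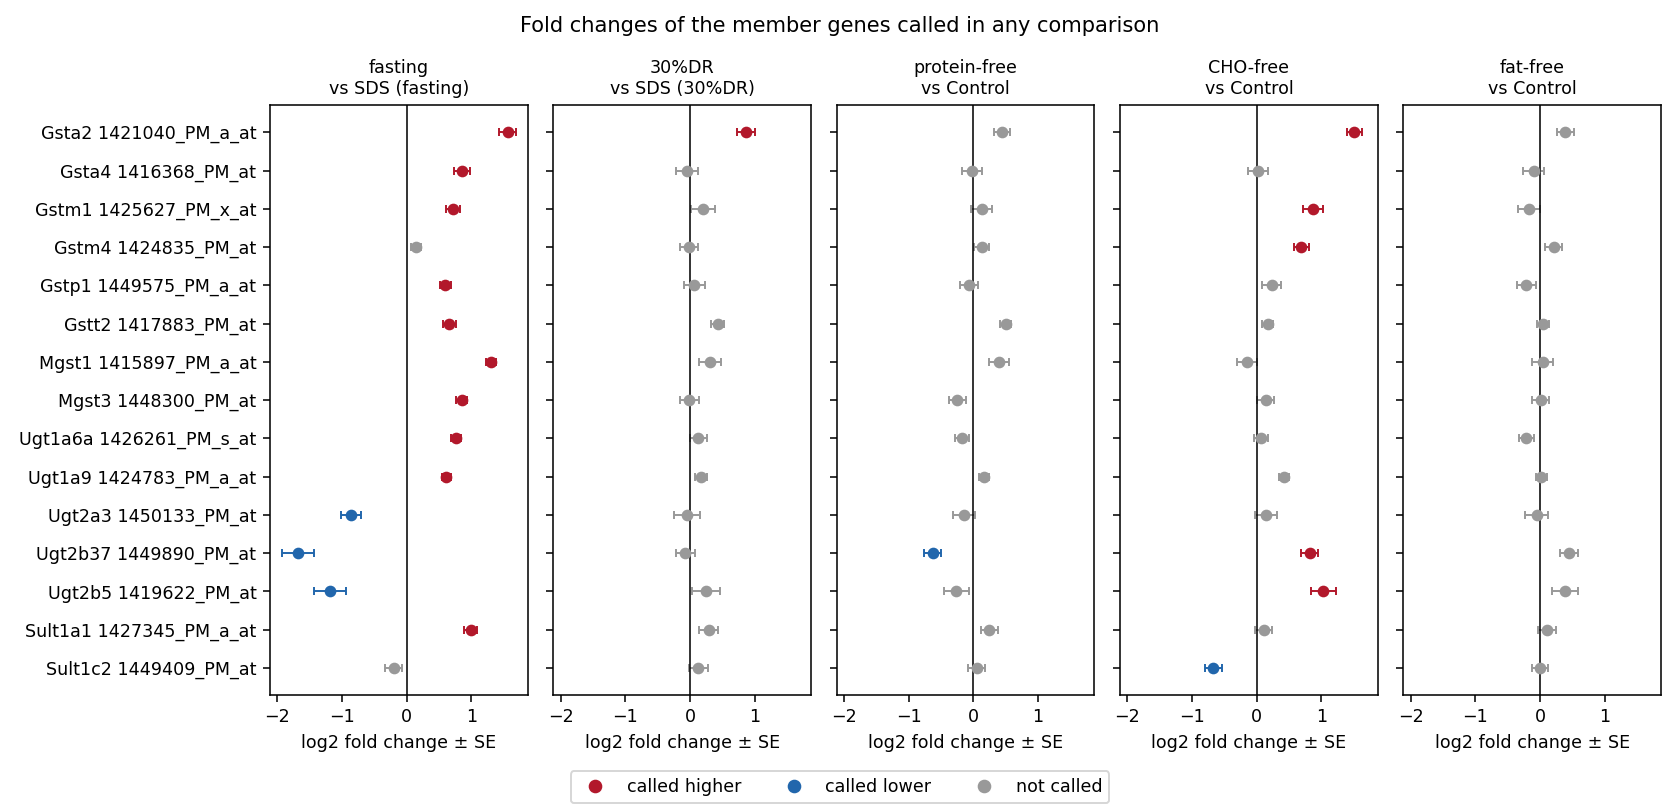
Log2 fold change ± SE (x axis) of the 15 member genes called in any comparison, each by its called probe set with the lowest p (y axis), in the 5 interventions. Gsta2 is called in 3 panels (1.56 in fasting, 0.86 after 30%DR and 1.51 on the CHO-free diet), and Ugt2b37 is lower in fasting (-1.68) and on the protein-free diet (-0.63) and higher on the CHO-free diet (0.82).

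The protein-free and CHO-free diets were then compared with each other directly, both having been given for 3 days. Of the members, 10 differed (3 higher and 7 lower in protein-free mice, 17.9%), against 2.44% of all probe sets, 1.34% higher and 1.1% lower. Ugt2b37 was lower in protein-free mice by 1.46 on the log2 scale (SE 0.13, adjusted p 6.87e-08), with 9.70 to 10.32 in protein-free mice and 11.40 to 11.66 in CHO-free mice. The log2 difference of Ugt2b5 was -1.28 (SE 0.19, adjusted p 8.31e-05), where protein-free mouse TS49, at 6.66, lay above CHO-free mouse TS32, at 6.53.

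Gsta2 was also lower in protein-free mice, by log2 differences of -1.08 and -1.35 (adjusted p 1.35e-06 and 2.57e-05), without overlap on either probe set. Gstm1 differed by -0.74, -0.68 and -0.64 on 3 of its probe sets. Higher in protein-free mice were Ugt3a1, by 0.73 and 0.65 (adjusted p 0.000185 and 0.000115), and Sult1c2, by 0.73 (adjusted p 0.000542). Ugt3a1 probe set 1451373_PM_at gave 11.02, 11.15, 10.90, 10.93 and 11.28 in protein-free mice and 10.46, 10.75, 10.04, 10.42 and 10.36 in CHO-free mice, so the groups were apart. Without mice TS34 and TS35 4 of the 10 stayed called, both Gsta2 probe sets, Ugt2b37 and Ugt2b5. Those lost were the Gstm1 probe sets (-0.61, -0.60 and -0.60), Ugt3a1 (0.54 and 0.53) and Sult1c2 (0.58), so no higher call remained, and Mgst3 was called in addition (-0.59, adjusted p 0.0101). Adjustment for the Gapdh gap kept 8 of the 10 and lost 2 of the 3 higher calls, Ugt3a1 on the probe set above (0.56) and Sult1c2 (0.57), both below the fold change minimum, while Mgst3 was called at -0.59 (adjusted p 3.69e-05).

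Marker lists moved in this comparison too. The proximal tubule markers averaged 10.04 to 10.25 in protein-free mice and 9.72 to 9.91 in CHO-free mice, without overlap, with 1 of 8 called higher in protein-free mice (Slc7a13). Of 5 intercalated cell markers 3 were lower (Aqp6, Slc4a1 and Foxi1), with a mean of 7.76 to 8.09 in protein-free mice and 8.34 to 8.57 in CHO-free mice, and of 6 principal cell markers 2 were lower (Fxyd4 and Aqp2), with a mean of 7.22 to 7.48 in protein-free mice and 7.76 to 7.98 in CHO-free mice. Endothelial Tek and the hepatocyte marker Apoc3 were higher and erythroid Alas2 was lower. Their part in the member differences was not tested.

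The effect of 30%DR differed from that of the CHO-free diet in 2 members, against 0.62% of all probe sets. The difference between the effects was -0.89 for Ugt2b37 (SE 0.20, adjusted p 0.0353) and 0.80 for Sult1c2 (SE 0.19, adjusted p 0.0494), and neither passed without mice TS34 and TS35 (adjusted p 0.107 and 0.155) or after adjustment for the Gapdh gap (0.069 and 0.1). For Gsta2 it was -0.65 and -0.75 (SE 0.18 and 0.28, adjusted p 0.11 and 0.264) and did not pass, although adjustment for the Gapdh gap gave -1.03 (adjusted p 0.0486, called) on probe set 1421041_PM_s_at. Between the effects of 30%DR and of the protein-free diet no member differed, against 0.0222% of all probe sets, and 8 members and 6.15% of all probe sets had an unadjusted p under 0.05.

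Genes around the conjugation step were followed as lists. Of the enzymes and transporters that supply UDP-glucuronate and PAPS, 1 of 7 measured rose in fasting and on the CHO-free diet, in both cases Ugdh, which oxidizes UDP-glucose to UDP-glucuronate (0.59 with adjusted p 0.000121, and 0.65 with adjusted p 0.000123). Papss2, which makes PAPS, rose on the protein-free diet by 0.66 (SE 0.10, adjusted p 0.000543). Papss1 of the same list went the other way, by -0.52 on that diet (adjusted p 0.00909) and -0.51 in fasting (adjusted p 0.00146). Both lay below the fold change minimum. Among 8 glutathione synthesis and turnover genes, Chac1 rose by 1.07 and Chac2 fell by 0.80 in fasting, both of them glutathione-degrading enzymes, and none passed on another diet. Gclc, which sets the rate of glutathione synthesis, differed by 0.20 in fasting (adjusted p 0.192) and 0.28 on the CHO-free diet (adjusted p 0.435).

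Of 12 other conjugating or epoxide-handling enzymes, Ephx1, the microsomal epoxide hydrolase, rose in fasting by 0.70 and on the CHO-free diet by 0.67, where Hnmt, the histamine methyltransferase, fell by 0.95. Of 4 deconjugation genes Gusb, the lysosomal enzyme that removes glucuronic acid, fell by 1.19 in fasting, by 0.84 after 30%DR and by 0.90 on the CHO-free diet (adjusted p 1.45e-05, 0.00246 and 4.76e-05). Among 8 regulators Ppara, a fatty acid sensor active in fasting, rose by 1.0 in fasting (SE 0.08, adjusted p 1.21e-05). Below the fold change minimum, Ppara differed by 0.53 on the CHO-free diet (adjusted p 0.00988) and Nr1i3 by 0.55 in fasting (adjusted p 0.000243). Nfe2l2, which encodes Nrf2, differed by 0.14 in fasting (adjusted p 0.154) and -0.19 on the CHO-free diet (adjusted p 0.434).

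Cell markers moved with the fasting result. Of 9 leukocyte markers 5 fell and none rose, with a mean level of 5.33 to 5.51 in fasted mice and 5.75 to 6.13 in SDS mice. Of 6 hepatocyte markers Serpina1a, Apoc3 and Fga rose and Ttr fell, with a mean level of 8.72 to 9.42 in fasted mice and 7.92 to 8.61 in SDS mice, and Alb was not called. Both erythroid markers measured, Hba-a1 and Alas2, fell, with a mean level of 8.09 to 8.46 in fasted mice and 8.85 to 9.81 in SDS mice.

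Among the nephron markers in fasting, 1 of 8 of the proximal tubule rose (Pck1) and 2 fell (Slc7a13 and Slc5a2), with a mean of 9.95 to 9.99 in fasted mice and 10.03 to 10.17 in SDS mice. The Pck1 probe set gave a low signal, 2.53 to 4.08 over all arrays with a median of 2.98. Of 4 distal convoluted tubule markers Calb1 and Pvalb fell, with a mean of 9.05 ± 0.03 in fasted mice (n = 4) and 9.45 ± 0.13 in SDS mice (SD, n = 5). Avpr2 of the principal cells fell and Wt1 of the podocytes rose.

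On the CHO-free diet 2 of 9 leukocyte markers (C1qa and C1qb), 1 of 8 proximal tubule markers (Slc7a13), 2 of 6 thick ascending limb markers (Cldn10 and Cldn16) and 1 of 4 distal convoluted tubule markers (Pvalb) fell, and 2 of 5 intercalated cell markers rose (Aqp6 and Slc4a1). After 30%DR Pvalb fell. The adipocyte marker Fabp4 was lower in Control than in SDS (30%DR) mice (-1.15, SE 0.22, adjusted p 0.0394). On the protein-free diet Pck1 rose on its low signal, and both erythroid markers and the intercalated cell marker Foxi1 fell. The part of these shifts in the results above was not tested, and in whole kidney a change in the number of cells and in RNA per cell cannot be told apart.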

How the data were processed

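Kidney RNA of 36 mice was hybridized to Affymetrix HT MG-430 PM arrays. The authors deposited log2 values after RMA normalization for 45141 probe sets. No source used here gives the RMA version. Per the study's methods the fasting arrays and their SDS arrays were normalized apart from the rest and outlying arrays were excluded. The labels name 1 SDS diet for both cohorts, and its mice were placed by the prefix of their animal identifiers. Of the SDS (30%DR) group 3 arrays were used here, and mice restricted for 3 days were not used. The number of arrays limits the precision.

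Gene symbols came from the platform annotation, with 1 symbol for 28898 probe sets, several for 551 and none for 15692. Each cohort was fitted as a whole in limma 3.58.1 (R 4.3.3) with eBayes defaults, which gave all adjusted p-values, and the code was tested on simulated data. Named were all genes with a called member and the 2 brightest genes of each family. The member rule and the gene lists were chosen with earlier results of these data known. Promoters were taken from RefSeq (GRCm38.p6). Alternatives were another prior, quantile or median scaling, a signal filter, no fold change minimum, the compared groups alone, array weights, Gapdh or adipocyte covariates, and leaving out each mouse. Leaving out TS34 and TS35 together was chosen after seeing the data.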

Additional observations from a re-analysis of the deposited data

Results flagged for a closer look

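Single mice stood far from the rest of their group in 11 of 161 tests over 23 named probe sets and groups of 4 or 5 mice. Chance alone would mark about 5% of such groups. Mouse K349 (SDS, fasting cohort) was low for Gsta2 1421041_PM_s_at at 8.58, against 9.56 to 9.94 in the others, and for Ugt1a6a 1426261_PM_s_at at 10.46, against 10.75 to 10.86. Protein-free mouse TS49 was high for Gstm4 at 6.42, against 6.07 to 6.12, and low for Ugt1a6a 1426261_PM_s_at at 9.99, against 10.54 to 10.72. 30%DR mouse TS75 was low for Sult1a1 at 7.80, against 8.31 to 8.48, and for Ugt2b37 at 10.11, against 10.54 to 10.70. CHO-free mouse TS34, 1 of the 2 with the widest Gapdh gap, was low for Sult1a1 at 7.64, against 8.22 to 8.39. Mice K349, TS49 and TS75 each had the widest Gapdh gap of their own group, at 1.23, 2.19 and 2.22. The part of the gap in these values was not tested.

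The remaining such mice were fasted mouse K339 for Ugt3a2 (12.76, against 12.94 to 12.97), protein-free mouse TS50 for Gstm1 1425626_PM_at (4.47, against 4.04 to 4.15), protein-free mouse TS54 for Sult1c2 (9.13, against 8.64 to 8.77) and Control mouse TS30 for Sult1d1 1448973_PM_at (12.33, against 11.50 to 11.72). None of these mice had the widest Gapdh gap of its group.

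Of 3 differences between diets tested in limma, none with the fat-free diet, those from the CHO-free diet held called members. In protein-free minus CHO-free mice they were Gsta2 (-1.08 and -1.35), Gstm1 (-0.68, -0.74 and -0.64), Ugt2b37 (-1.46), Ugt2b5 (-1.28), Ugt3a1 (0.73 and 0.65) and Sult1c2 (0.73). In the effect of 30%DR minus that of the CHO-free diet they were Ugt2b37 (-0.89) and Sult1c2 (0.80).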

How the results depend on the processing

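Fold changes were recomputed under each alternative for the called members, and none of them changed direction (675 stayed called and 66 did not). The signal filter removed Ugt2a3 in fasting, so its lost call there is in neither number. Another prior, the signal filter, no fold change minimum and the compared groups alone leave the fold change itself as it is. Those settings could not change a direction, and no fold change minimum could not lose a call, so these numbers are a description only. The counts of called members kept within 1.5 times of those reported except as follows. In fasting no fold change minimum gave 27 in place of 16, while the share of all probe sets was 19.6%, against 5.31%. After 30%DR the adipocyte covariate gave 1 in place of 2 (0.567% of all probe sets, against 0.919%). On the protein-free diet no fold change minimum gave 2 (1.69% of all probe sets, against 0.738%) and the compared groups alone gave 0 (0.685%), in place of 1. For protein-free minus CHO-free, leaving out TS34 and TS35 gave 5 in place of 10, 4 of them among the 10 and Mgst3 in addition. The share of all probe sets was then 1.68%, against 2.44%. For the effect of 30%DR minus that of the CHO-free diet, the compared groups alone and array weights gave 1 each (Ugt2b37), the Gapdh covariate gave 1 that was not among the 2 (Gsta2) and leaving out TS34 and TS35 gave 0, in place of 2. The shares of all probe sets were 0.467%, 0.649%, 0.574% and 0.547% in that order, against 0.62%. The cause of these changes was not tested. On the CHO-free diet the Gapdh covariate left 7 of the 10 members, while the share of all probe sets called was 0.891%, against 3.6%. Without TS34 and TS35 8 of the 10 members stayed called there, with 1.25% of all probe sets.

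Leaving out 1 mouse at a time gave 14 to 19 called members in fasting (14 without K349 or K344, 19 without K343) and 9 to 11 on the CHO-free diet. The share of all probe sets called ran over 5.1% to 5.73% in fasting and 2.28% to 5.79% on the CHO-free diet. Leaving out 1 mouse gave 1 to 2 called members after 30%DR (1 without TS55, TS56, TS73 or TS76) and 0 to 1 on the protein-free diet (0 without TS29, TS50 or TS51). The shares of all probe sets were 0.319% to 0.922% and 0.56% to 0.955%. Leaving out 1 mouse gave 8 to 12 for protein-free minus CHO-free and 0 to 4 for the effect of 30%DR minus that of the CHO-free diet (0 without TS56, TS58, TS75, TS76, TS28, TS34, TS35 or TS36, 4 without TS32). The shares of all probe sets were 1.84% to 3.87% and 0.315% to 0.78%. For the fat-free diet, for Control against SDS (30%DR) and for the effect of 30%DR minus that of the protein-free diet no member was called each time. The shares of all probe sets were 0%, 0.00443% to 0.0554% and 0.00886% to 0.0421%. No paired analysis was possible because the labels give each mouse its own identifier and no number shared between groups. Members with signals below the median probe set leave little room for a fall.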
